A study of Mus musculus with 17 samples.

Results

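Shh, Hhip, Ptch1, Boc, Smo, Sufu, Gli1, Gli2 and Gli3 encode core parts of the Hedgehog signalling pathway, and their RNA levels were followed in 12 mouse RNA-seq libraries. The genes were chosen by symbol and are 9 of the 53090 gene entries in the deposited count tables. The study concerns proteins in which YAP, a transcriptional coactivator, is fused to another protein in ependymoma of the supratentorial brain. In the YMdIDR group, 3 libraries carried overexpressed YAP-MΔIDR, and their labels name brain tumour tissue in one field and progenitor cells made from embryonic stem cells in another. In the YAP-M group, 4 libraries came from brain tumours raised by in utero electroporation with YAP-M, which places DNA in the brain of the embryo. In the NSC-YAP group, 2 libraries came from neural progenitors, made from embryonic stem cells, in which YAP was overexpressed. In the SVZ group, 3 libraries were wild type, although their tissue label reads brain tumour. Strain, age and the promoters of the constructs are not stated in the sources used. The labels do not say whether replicates came from separate animals or cultures, so p-values measure the spread between these libraries, which may be partly technical.

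Hedgehog ligands such as Sonic hedgehog, the product of Shh, bind the receptor Patched, the product of Ptch1. Without ligand, Patched holds the membrane protein Smoothened (Smo) inactive. With ligand, Smoothened is released at the primary cilium and turns the Gli transcription factors towards activation of their targets. Sufu restrains the Gli proteins in the cytoplasm, Boc helps ligand to bind, and the membrane protein Hhip sequesters it. Gli1, Ptch1 and Hhip are themselves transcribed in response to Hedgehog in many tissues. In the forebrain the pathway patterns the ventral telencephalon and maintains neural stem cells of the adult ventricular wall.

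Total counts per library ranged from 20784130 to 25463303. Levels are given as CPM, counts scaled to a common library size and expressed per 1e6, and a level that gives 3 counts lay between 0.111 and 0.147 CPM. The summed level of 6 macrophage genes was 1360 to 1520 CPM in YMdIDR, 1160 to 1830 CPM in YAP-M, 41.3 to 43.3 CPM in NSC-YAP and 163 to 217 CPM in SVZ. All 6 macrophage genes averaged at least 1 CPM in YMdIDR, YAP-M and SVZ, against 2 of 6 in NSC-YAP. For YMdIDR these values go against a label of progenitor cells alone. Neural stem cell genes summed to 1760 to 1820 CPM in NSC-YAP and 508 to 549 CPM in YMdIDR. Their sum was 195 to 357 CPM in YAP-M and 244 to 281 CPM in SVZ. All 6 averaged at least 1 CPM in each group. Astrocyte genes summed to 4090 to 4120 CPM in NSC-YAP, mostly Slc1a3 at 3756 and 3703 CPM, and to 3900 to 5310 CPM in SVZ. Neuronal genes summed to 462 to 485 CPM in YMdIDR, 279 to 642 CPM in YAP-M, 751 to 819 CPM in NSC-YAP and 4590 to 4870 CPM in SVZ, with 6 of 8 at a mean of at least 1 CPM in NSC-YAP and all 8 in the other groups. Most of the NSC-YAP sum was Map2, at 655 and 721 CPM, while Snap25 stood at 6.41 to 57.8 CPM in YMdIDR, 26.1 to 163 CPM in YAP-M and 1.80 to 2.32 CPM in NSC-YAP, and Stmn2 stood at 0 and 0.0408 CPM in the NSC-YAP libraries. Oligodendrocyte genes summed to 326 to 1070 CPM in YMdIDR, 608 to 2920 CPM in YAP-M, 1650 to 1720 CPM in NSC-YAP and 25100 to 29600 CPM in SVZ. Of the NSC-YAP sum, 1503 to 1576 CPM was Olig1, and Mbp stood at 2.41 to 2.85 CPM there. Endothelial genes summed to 158 to 221 CPM in YMdIDR, 244 to 357 CPM in YAP-M, 22.2 to 23.1 CPM in NSC-YAP and 134 to 188 CPM in SVZ, and blood genes to 22.5 to 61.0 CPM in YMdIDR, 111 to 268 CPM in YAP-M, 1.27 to 1.63 CPM in NSC-YAP and 1010 to 1480 CPM in SVZ. The part of these cell types in the results below was not tested, and in bulk samples fewer cells of a type cannot be told apart from less RNA per cell.

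A gene was called when its Benjamini-Hochberg adjusted p in edgeR's quasi-likelihood test was under 0.05 and its log2 fold change was at least 1 in size. All 9 genes passed the filter of at least 1 CPM in at least 2 libraries. Shh passed it in the 3 SVZ libraries alone, and Gli1 in the 3 SVZ libraries and 1 NSC-YAP library, so these genes had to differ from SVZ and that difference is a description of level.

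**Figure D1:**
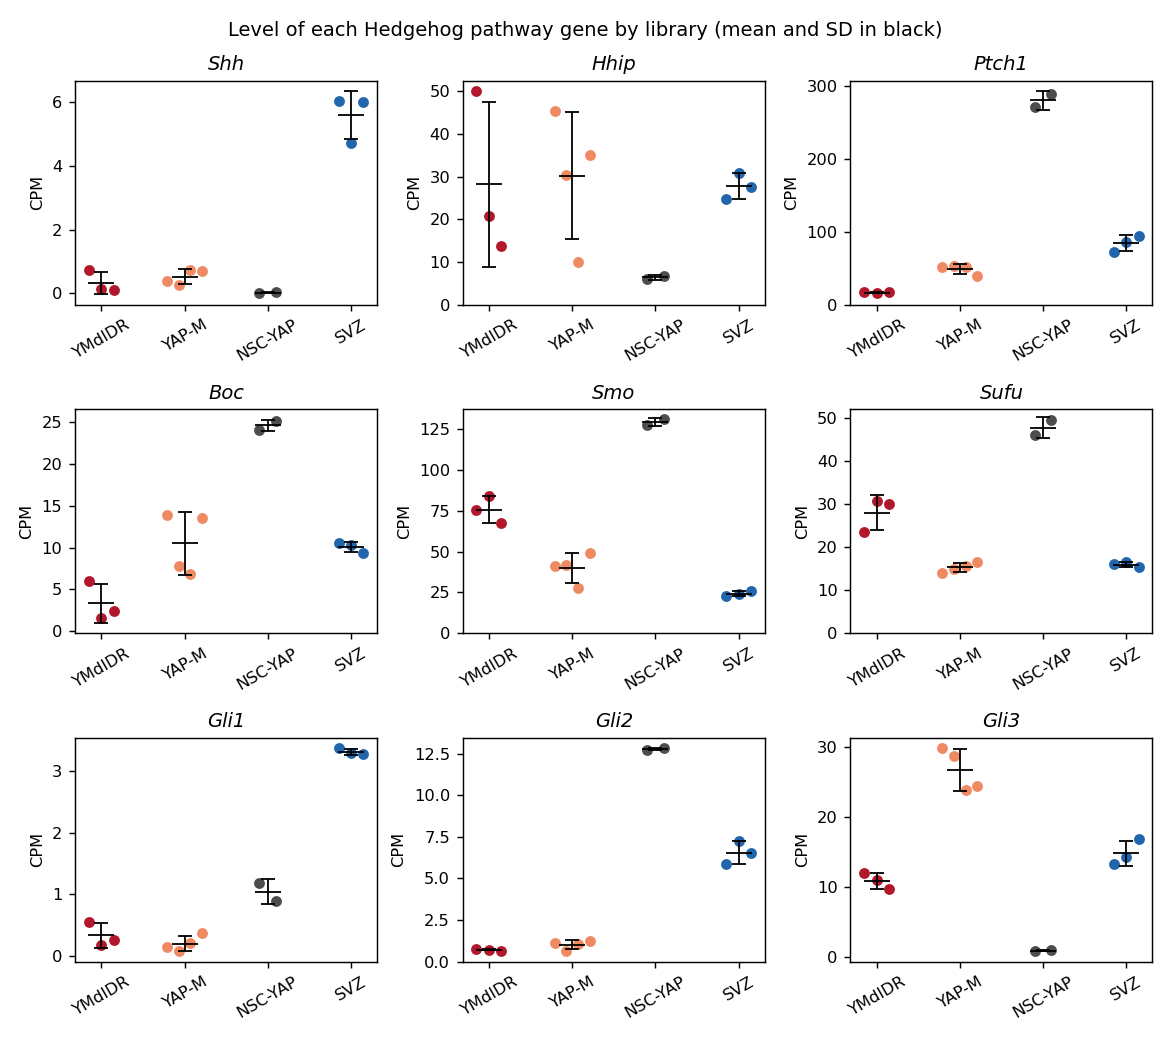
Levels in CPM (vertical axes, each from about 0) of the 9 genes in every library of the YMdIDR, YAP-M, NSC-YAP and SVZ groups (horizontal axes); each point is 1 library, and the black bars give the mean and SD. Ptch1, Boc, Smo, Sufu and Gli2 were highest in NSC-YAP, Shh and Gli1 in SVZ and Gli3 in YAP-M, while Hhip spread from 13.7 to 50.2 CPM in YMdIDR and from 9.95 to 45.4 CPM in YAP-M.

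The ligand gene Shh (ENSMUSG00000002633, mm10 chr5:28456815-28467256, minus strand) was scarce outside SVZ. It stood at 0.728, 0.135 and 0.0885 CPM in the YMdIDR libraries, and at 0.369, 0.260, 0.726 and 0.706 CPM in the YAP-M libraries. The NSC-YAP libraries had 0 and 0.0408 CPM, which is 1 count in all, and the SVZ libraries had 6.04, 4.73 and 6.02 CPM. SVZ lay above every other library, and the YMdIDR and YAP-M groups overlapped. The log2 fold change was -4.11 ± 0.64 (SE) for YMdIDR over SVZ and -3.44 ± 0.54 for YAP-M over SVZ. Between YMdIDR and YAP-M it was -0.67, with a 95% interval from -2.06 to 0.72 (edgeR adjusted p = 0.415). Without YMdIDR replicate 1, which held 17 of the group's 22 Shh counts, that difference was called at -2.14 (adjusted p = 0.0162). Against the single NSC-YAP count, Shh was 15.8 times higher in YMdIDR (95% counting interval 2.56 to 653) and 24.9 times higher in YAP-M (4.28 to 1000). The call of Shh in YMdIDR over NSC-YAP was lost without YMdIDR replicate 1 (adjusted p = 0.11) or NSC-YAP replicate 1 (0.131). That in YAP-M over NSC-YAP was lost without NSC-YAP replicate 1 (0.0526). The NSC-YAP level was 0.00366 times that of SVZ (9.23e-05 to 0.0205). The overlapping antisense gene Gm26894 reached at most 0.186 CPM outside SVZ and 1.08 to 1.66 CPM in SVZ. Since the use of strand in counting is not given, its reads cannot be told apart from those of Shh.

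Hhip (ENSMUSG00000064325, mm10 chr8:79965851-80058006, minus strand), the gene of the ligand-sequestering protein, had 50.2, 20.8 and 13.7 CPM in YMdIDR. It had 45.4, 30.4, 9.95 and 35.1 CPM in YAP-M, 5.91 and 6.82 CPM in NSC-YAP, and 24.9, 30.9 and 27.7 CPM in SVZ. The YMdIDR, YAP-M and SVZ groups overlapped one another, and every one of their libraries lay above both NSC-YAP libraries. Hhip was called higher over NSC-YAP in YMdIDR (log2 fold change 2.15 ± 0.63, edgeR adjusted p = 0.01) and in YAP-M (2.25 ± 0.62, adjusted p = 0.00642), and lower in NSC-YAP over SVZ (-2.13 ± 0.63, adjusted p = 0.0112). With 1 NSC-YAP library left out, the fold changes of Hhip stayed close while several calls were lost. YMdIDR over NSC-YAP was 2.04 without replicate 1 (adjusted p = 0.0699) and 2.24 without replicate 2 (0.0528). NSC-YAP over SVZ was -1.99 without replicate 1 (adjusted p = 0.0787) and -2.22 without replicate 2 (0.0563). YAP-M over NSC-YAP was 2.17 without replicate 1 (adjusted p = 0.0524), and 2.34 and still called without replicate 2 (0.041). The other 3 intervals were wide: -1.15 to 0.95 for YMdIDR over YAP-M, -1.10 to 1.15 for YMdIDR over SVZ and -0.93 to 1.17 for YAP-M over SVZ.

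Hhip varied within YMdIDR and YAP-M, and so did fibroblast and pericyte genes, though not all in the same direction. In YMdIDR the summed level of 7 such genes was 5740, 3310 and 1420 CPM in replicates 1, 2 and 3, where Hhip stood at 50.2, 20.8 and 13.7 CPM. In YAP-M replicate 3, which had the group's lowest Hhip, the sum was 1990 CPM. In YAP-M replicates 1, 2 and 4 it was 3180, 3300 and 3750 CPM, where Hhip stood at 45.4, 30.4 and 35.1 CPM. The library with the most Hhip thus had the smallest sum of these 3, but the highest Col1a1 and Dcn. In YAP-M replicates 1 to 4 Col1a1 stood at 258, 207, 80.8 and 215 CPM. Dcn stood at 268, 154, 61.5 and 183 CPM there. Both ran in the order of Hhip in YAP-M, and the other genes of the list did not. Acta2 made up most of the sum in both groups, at 4154, 2350 and 942 CPM in YMdIDR and 1925, 2060, 1544 and 2281 CPM in YAP-M. The collagen gene Col1a1 ran in the order of Hhip in YMdIDR, at 401, 171 and 94.7 CPM. So did Acta2, Col1a2 and Dcn, while Lum did not. The pericyte gene Rgs5 ran in the opposite order, at 41.2, 51.2 and 76.1 CPM, and Pdgfrb was lowest in replicate 1, at 69.0, 117 and 94.4 CPM. In YAP-M replicate 3 Col1a1, Col1a2, Dcn, Lum and Acta2 were at their lowest of the group, but neither Rgs5 nor Pdgfrb was. In SVZ the sum was 288 to 342 CPM beside 24.9 to 30.9 CPM of Hhip. NSC-YAP had the lowest of both, with a sum of 7.23 to 8.85 CPM beside 5.91 and 6.82 CPM of Hhip. All 7 genes averaged at least 1 CPM in YMdIDR, YAP-M and SVZ. In NSC-YAP 2 of 7 did, and Lum had no count. The part of these genes in the spread of Hhip was not tested.

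**Figure D2:**
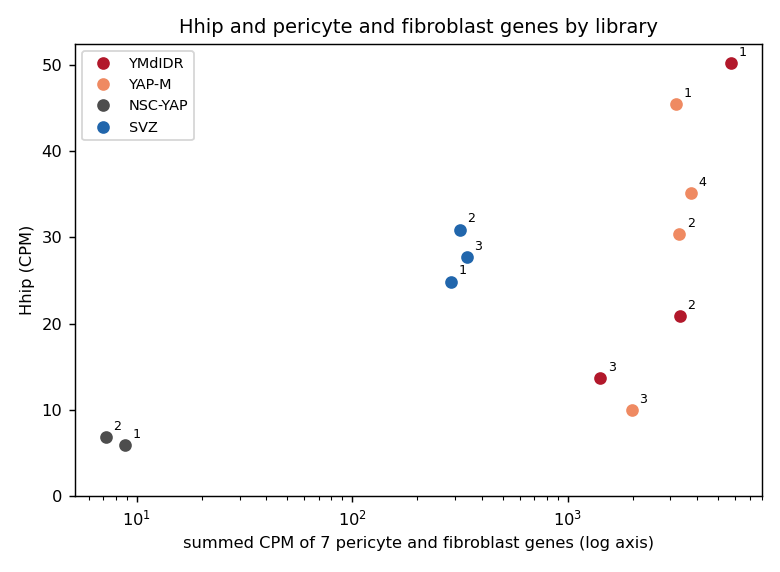
Hhip in CPM (vertical axis) against the summed CPM of 7 pericyte and fibroblast genes (horizontal log axis) in each of the 12 libraries, with replicate numbers beside the points and groups by colour. Within YMdIDR the library with the highest sum had the highest Hhip (50.2 CPM), and in YAP-M the library with the lowest sum had the lowest (9.95 CPM). In the other 3 YAP-M libraries the highest Hhip (45.4 CPM) stood at the smallest sum (3180 CPM). The 3 SVZ libraries had 24.9 to 30.9 CPM of Hhip at sums of 288 to 342 CPM. The NSC-YAP libraries had 5.91 and 6.82 CPM of Hhip at sums of 7.23 to 8.85 CPM.

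Ptch1 (ENSMUSG00000021466, mm10 chr13:63508328-63573598, minus strand), the gene of the ligand receptor, separated all 4 groups. Its levels were 16.7, 15.3 and 17.7 CPM in YMdIDR, and 51.6, 52.8, 52.0 and 38.6 CPM in YAP-M. In NSC-YAP they were 271 and 289 CPM, and in SVZ 72.5, 86.3 and 94.6 CPM. No groups overlapped, and the order from the highest was NSC-YAP, SVZ, YAP-M and YMdIDR. Ptch1 was 2.94-fold lower in YMdIDR than in YAP-M (log2 fold change -1.56 ± 0.13, edgeR adjusted p = 3.02e-05), 16.9-fold lower in YMdIDR than in NSC-YAP (-4.08 ± 0.16) and 5.09-fold lower in YMdIDR than in SVZ (-2.35 ± 0.14). In YAP-M it was 5.75-fold lower than in NSC-YAP (-2.52 ± 0.14). YAP-M stood below SVZ by a smaller step (-0.79 ± 0.13, adjusted p = 0.00014) that did not reach the fold change needed for a call. NSC-YAP was 3.32-fold higher than SVZ (1.73 ± 0.15, adjusted p = 2.05e-06). In all 6 comparisons the direction of Ptch1 was the same under each alternative tried.

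Boc (ENSMUSG00000022687, mm10 chr16:44485049-44558897, minus strand), the co-receptor gene, had 5.95, 1.53 and 2.48 CPM in YMdIDR, and 13.97, 7.83, 6.79 and 13.5 CPM in YAP-M. It had 24.1 and 25.1 CPM in NSC-YAP, and 10.6, 10.3 and 9.35 CPM in SVZ. YMdIDR lay below every other library and NSC-YAP above, while YAP-M spanned the SVZ values. Boc was 3.16-fold lower in YMdIDR than in YAP-M (log2 fold change -1.66 ± 0.41, adjusted p = 0.00774), and -2.39 without YMdIDR replicate 1, in which it was highest. It was also lower in YMdIDR than in NSC-YAP (-2.89 ± 0.47, adjusted p = 0.000211) and SVZ (-1.60 ± 0.43, adjusted p = 0.00513). YAP-M over SVZ gave 0.06 with an interval from -0.78 to 0.90. The remaining calls were less firm. YAP-M over NSC-YAP (-1.23 ± 0.41, adjusted p = 0.0195) was lost without NSC-YAP replicate 1 (0.0731) or 2 (0.0776). NSC-YAP over SVZ (1.29 ± 0.45, adjusted p = 0.0243) was lost without NSC-YAP replicate 1 (0.0701) or 2 (0.0848) and without SVZ replicate 1 (0.0517), 2 (0.0547) or 3 (0.0656).

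Smo (ENSMUSG00000001761, mm10 chr6:29735503-29761365, plus strand), the signal transducer gene, had 75.6, 84.0 and 67.6 CPM in YMdIDR, and 41.3, 41.7, 27.5 and 49.4 CPM in YAP-M. It had 128 and 131 CPM in NSC-YAP, and 22.8, 24.1 and 25.9 CPM in SVZ. The groups did not overlap, and the order from the highest was NSC-YAP, YMdIDR, YAP-M and SVZ. YMdIDR was 3.12-fold higher than SVZ (log2 fold change 1.64 ± 0.18, adjusted p = 7.19e-06), and NSC-YAP was 5.34-fold higher than SVZ (2.42 ± 0.19). YAP-M was 3.24-fold lower than NSC-YAP (-1.70 ± 0.18, adjusted p = 6.68e-06). The other 3 steps had adjusted p-values under 0.05 with changes under the fold needed for a call. They were 0.92 ± 0.16 for YMdIDR over YAP-M (adjusted p = 0.00121), -0.77 ± 0.19 for YMdIDR over NSC-YAP (0.00375) and 0.72 ± 0.17 for YAP-M over SVZ (0.00197). Without YAP-M replicate 4 YMdIDR over YAP-M was 1.01 and called.

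Receptor and transducer thus differed in opposite directions between YMdIDR and YAP-M, at -1.56 for Ptch1, which was called, and 0.92 for Smo, which was not. Promoter windows of these genes, from 250 bases before to 50 bases after the RefSeq start in the GRCm38.p6 build, are shown because the pair differed in this way. Both read 5′ to 3′ along the gene, and capitals mark the letters CATTCC, the reverse complement of the TEAD core GGAATG.
Ptch1, chr13:63565686-63565985, minus strand: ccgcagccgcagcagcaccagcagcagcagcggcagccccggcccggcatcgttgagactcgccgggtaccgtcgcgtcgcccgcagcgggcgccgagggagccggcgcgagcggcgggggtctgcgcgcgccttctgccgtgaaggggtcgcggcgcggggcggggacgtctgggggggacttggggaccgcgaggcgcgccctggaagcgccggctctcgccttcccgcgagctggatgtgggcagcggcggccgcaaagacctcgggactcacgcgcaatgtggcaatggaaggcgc
Smo, chr6:29735247-29735546, plus strand: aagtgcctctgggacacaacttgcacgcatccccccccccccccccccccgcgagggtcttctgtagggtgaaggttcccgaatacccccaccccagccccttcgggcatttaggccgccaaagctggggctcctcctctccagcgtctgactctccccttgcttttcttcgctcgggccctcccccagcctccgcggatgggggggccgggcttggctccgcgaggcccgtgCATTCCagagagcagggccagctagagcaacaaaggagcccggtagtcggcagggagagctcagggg
The Ptch1 window is 76.3% G and C with 47 CpG dinucleotides, and the Smo window 67.7% with 17. Windows were found for 6 of the 9 genes: Ptch1, Smo, Gli2, Gli3, Hhip and Sufu. On either strand, the TEAD core was present in the Smo window, where it begins 17 bases before the start, in none of the other 5, and in 14.7% of all 32851 windows. The GLI core GACCACCCA was in none of the 6 windows and in 0.253% of all windows. The RefSeq start of Ptch1 lies 7863 bases inside the gene as the count tables place it, so the window describes 1 of its starts. A match or its absence describes letters in this window and no binding.

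Sufu (ENSMUSG00000025231, mm10 chr19:46396896-46488804, plus strand), the gene of the cytoplasmic Gli restrainer, had 23.4, 30.6 and 29.9 CPM in YMdIDR, and 14.004, 14.8, 15.5 and 16.5 CPM in YAP-M. It had 46.0 and 49.4 CPM in NSC-YAP, and 16.0, 16.4 and 15.3 CPM in SVZ. YAP-M and SVZ overlapped, and YMdIDR lay between them and NSC-YAP. NSC-YAP was higher than SVZ (log2 fold change 1.58 ± 0.13, adjusted p = 1.62e-06), and YAP-M 3.13-fold lower than NSC-YAP (-1.65 ± 0.12, adjusted p = 4.89e-07). YMdIDR differed from the other groups by less than the fold needed for a call, at 0.88 ± 0.11 over YAP-M (adjusted p = 0.00021), -0.77 ± 0.13 over NSC-YAP (0.000327) and 0.81 ± 0.12 over SVZ (8.36e-05). YAP-M over SVZ gave -0.06 with an interval from -0.31 to 0.19, and its sign turned under several alternatives.

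Gli1 (ENSMUSG00000025407, mm10 chr10:127329882-127341974, minus strand), an activating Gli factor and a widely used readout of the pathway, was near the limit of counting in both fusion groups. It had 0.557, 0.180 and 0.265 CPM in YMdIDR from 13, 4 and 6 counts, and 0.147, 0.0742, 0.214 and 0.372 CPM in YAP-M from 4, 2, 5 and 10 counts. NSC-YAP had 1.18 and 0.898 CPM, and SVZ had 3.37, 3.29 and 3.28 CPM. YMdIDR and YAP-M overlapped, NSC-YAP lay above both and SVZ above all. The log2 fold change over SVZ was -3.28 ± 0.47 in YMdIDR, -4.00 ± 0.44 in YAP-M and -1.67 ± 0.48 in NSC-YAP. Between YMdIDR and YAP-M it was 0.72, with an interval from -0.40 to 1.85 (adjusted p = 0.271). Gli1 was also lower than in NSC-YAP, by -1.62 ± 0.52 in YMdIDR (adjusted p = 0.0156, or 0.0882 without NSC-YAP replicate 1) and by -2.34 ± 0.49 in YAP-M (0.00127). NSC-YAP over SVZ lost its call without NSC-YAP replicate 2 (adjusted p = 0.0838). Arhgap9, which overlaps Gli1 on the other strand, ran the opposite way between the fusion groups and SVZ, at 8.36 to 11.2 CPM in YMdIDR, 8.03 to 10.8 CPM in YAP-M, 0.0408 to 0.122 CPM in NSC-YAP and 1.20 to 1.62 CPM in SVZ. Reads shared between the 2 genes cannot be told apart here.

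Gli2 (ENSMUSG00000048402, mm10 chr1:118834132-119053619, minus strand), whose product is the main activator in response to ligand, had 0.728, 0.722 and 0.663 CPM in YMdIDR, and 1.14, 0.631, 1.07 and 1.23 CPM in YAP-M. It had 12.7 and 12.8 CPM in NSC-YAP, and 5.86, 7.25 and 6.56 CPM in SVZ. The fusion groups overlapped each other and lay well below NSC-YAP and SVZ. Gli2 was 18.0-fold lower in YMdIDR than in NSC-YAP (log2 fold change -4.17 ± 0.27, adjusted p = 1.77e-07) and 12.5-fold lower in YAP-M than in NSC-YAP (-3.64 ± 0.23, adjusted p = 1.48e-07). Over SVZ it was -3.21 ± 0.25 in YMdIDR and -2.68 ± 0.22 in YAP-M (adjusted p = 5.76e-07 and 7.88e-07). NSC-YAP over SVZ was 0.96 ± 0.24 (adjusted p = 0.00385), just short of a call, and YMdIDR over YAP-M was -0.53 with an interval from -1.06 to 0.01.

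Gli3 (ENSMUSG00000021318, mm10 chr13:15463235-15730026, plus strand), whose product acts mainly as a repressor when ligand is absent, followed another order. It had 11.99, 10.96 and 9.69 CPM in YMdIDR, and 29.8, 28.7, 23.8 and 24.3 CPM in YAP-M. The NSC-YAP libraries had 0.856 and 0.980 CPM, and the SVZ libraries 13.3, 14.3 and 16.8 CPM. No groups overlapped, and the order from the highest was YAP-M, SVZ, YMdIDR and NSC-YAP. Gli3 was 28.9-fold higher in YAP-M than in NSC-YAP (log2 fold change 4.85 ± 0.21, adjusted p = 1.1e-08) and 11.8-fold higher in YMdIDR than in NSC-YAP (3.56 ± 0.20). It was 16.0-fold lower in NSC-YAP than in SVZ (-4.00 ± 0.21, adjusted p = 6.92e-08). Between the fusion groups it was 2.45-fold lower in YMdIDR (-1.29 ± 0.14, adjusted p = 8.32e-05). YMdIDR over SVZ was -0.44 ± 0.14 (adjusted p = 0.0152) and YAP-M over SVZ 0.85 ± 0.14 (0.000144), neither of them called. Without YAP-M replicate 3 or 4, Gli3 in YAP-M over SVZ reached 1.01 and was called. The overlapping antisense gene Gm6556 had 0.361 to 0.685 CPM in YMdIDR, 0.995 to 2.18 CPM in YAP-M, 0.0408 to 0.0817 CPM in NSC-YAP and 5.13 to 8.47 CPM in SVZ. Its reads cannot be told apart from those of Gli3, which bears most on the comparisons with SVZ.

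Per kilobase of the gene length given in the tables, Gli3 averaged 1.13 CPM per kb in YMdIDR, 2.78 in YAP-M, 0.0957 in NSC-YAP and 1.54 in SVZ. On the same scale Gli2 averaged 0.103 CPM per kb in YMdIDR, 0.148 in YAP-M, 1.86 in NSC-YAP and 0.954 in SVZ. The Gli3 level per kb over the Gli2 level per kb was 10.5 to 11.8 in the YMdIDR libraries, 14.2 to 32.6 in the YAP-M libraries, 0.0482 to 0.0548 in the NSC-YAP libraries and 1.41 to 1.83 in the SVZ libraries. Gli3 was therefore the more abundant of the 2 in every YMdIDR, YAP-M and SVZ library, and Gli2 in both NSC-YAP libraries. Gli1 was below Gli2 in mean level per kb in each group, at 0.0669 CPM per kb in YMdIDR, 0.0404 in YAP-M, 0.208 in NSC-YAP and 0.663 in SVZ. Among all 9 genes, Smo had the highest mean level per kb in YMdIDR (13.5), YAP-M (7.11) and NSC-YAP (23.04), and Ptch1 in SVZ (5.95).

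**Figure D3:**
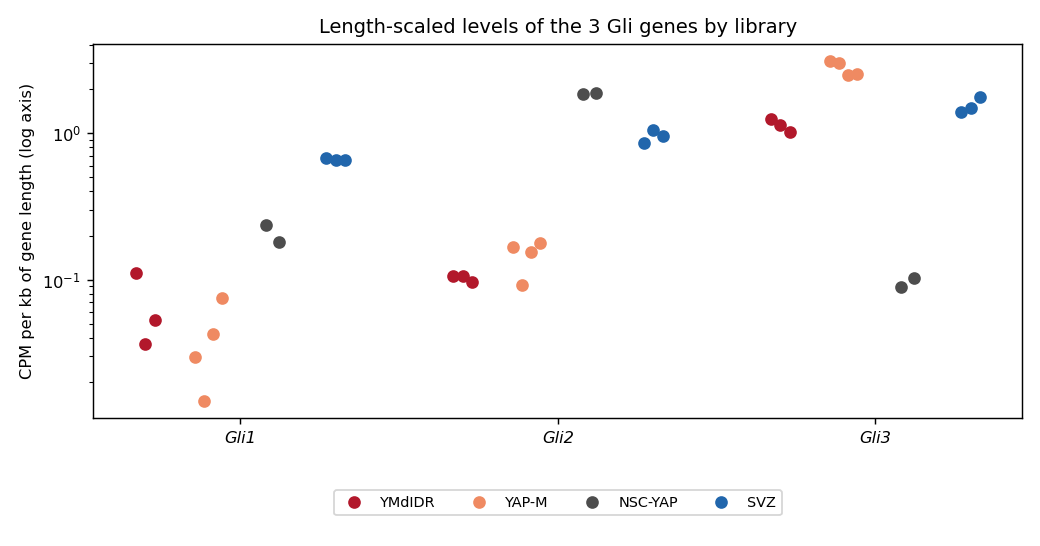
Levels of Gli1, Gli2 and Gli3 in CPM per kb of gene length (vertical log axis) in each library, with groups by colour from YMdIDR at the left to SVZ at the right of each gene. Gli3 averaged 2.78 CPM per kb in YAP-M and 0.0957 in NSC-YAP, while Gli2 averaged 0.148 in YAP-M and 1.86 in NSC-YAP.

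The comparison of YMdIDR with YAP-M sets the ΔIDR beside the full construct. Because the YMdIDR labels name both tumour tissue and progenitor cells, a difference of construct cannot be told apart from one of material. Ptch1, Boc and Gli3 were lower in YMdIDR, 3 of the 9 genes, where 9.61% of all 18329 tested genes were called lower and 16.4% in either direction. No member was called higher, against 6.78% of all genes. The median log2 fold change was -0.53 over the members and -0.01 over all tested genes. Astrocyte genes summed to 501 to 1610 CPM in YMdIDR and 1850 to 2760 CPM in YAP-M, and neural stem cell genes to 508 to 549 CPM in YMdIDR and 195 to 357 CPM in YAP-M. The stem cell genes did not move together: Nes stood at 351 to 438 CPM in YMdIDR and 75.4 to 130.5 CPM in YAP-M, but Sox2 at 5.28 to 14.3 CPM in YMdIDR and 23.3 to 28.1 CPM in YAP-M, and Prom1 at 1.53 to 3.08 CPM in YMdIDR and 8.93 to 13.3 CPM in YAP-M. All 6 genes of each list averaged at least 1 CPM in both groups, and their part in these differences was not tested.

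Against wild-type SVZ, Shh and Gli1 were lower in both YMdIDR and YAP-M, but their passing the filter through SVZ fixed this, and nothing is read from it. Of the other 7 members, YAP-M over SVZ had 1 lower, Gli2, where 28.9% of all genes were called lower, and none higher, where 25.8% were. YMdIDR over SVZ had 3 of the 7 lower, Ptch1, Boc and Gli2, where 29.6% of all genes were, and 1 higher, Smo, where 26.9% were. In either direction 54.7% of all genes were called in YAP-M over SVZ and 56.5% in YMdIDR over SVZ. These comparisons share the SVZ libraries.

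The comparisons with NSC-YAP set the YAP-M tumours, and the YMdIDR libraries with their mixed labels, beside progenitors that overexpress YAP itself. In YAP-M all 9 genes were called over NSC-YAP, where 50.4% of all genes were. Shh, Hhip and Gli3 were higher (28.9% of all genes) and Ptch1, Boc, Smo, Sufu, Gli1 and Gli2 lower (21.6%). In YMdIDR over NSC-YAP 7 of 9 were called, where 47.8% of all genes were, with Shh, Hhip and Gli3 higher (27.4% of all genes), and Ptch1, Boc, Gli1 and Gli2 lower (20.4%). Without NSC-YAP replicate 1, which leaves 1 NSC-YAP library, fewer members were called in both comparisons, and fewer of all genes too. In NSC-YAP over SVZ, where 45.1% of all genes were called, Ptch1, Boc, Smo and Sufu were higher (17.5% of all genes) and Hhip and Gli3 lower (27.6%), which is 6 of the 7 members other than Shh and Gli1. Without NSC-YAP replicate 2, Boc and Hhip were not called.

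**Figure D4:**
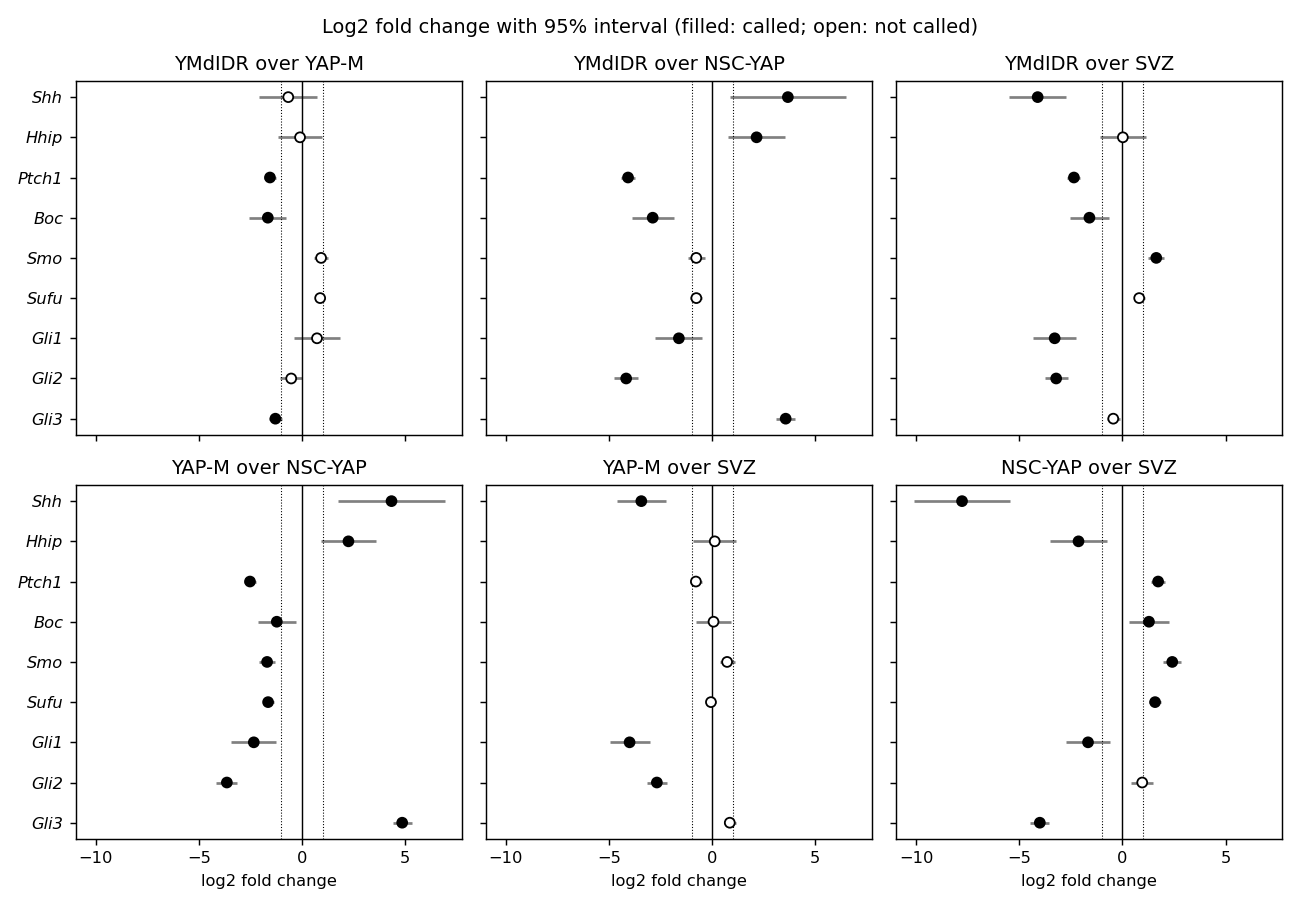
Log2 fold change (horizontal axes) of each of the 9 genes in the 6 comparisons, first-named group over second, with the 95% interval from edgeR as a line; filled points were called, open points were not, and dotted lines mark a log2 fold change of 1 in size. Gli3 is at 4.85 in YAP-M over NSC-YAP and -4.00 in NSC-YAP over SVZ, and Ptch1, Boc and Gli3 are the filled points of YMdIDR over YAP-M.

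A further 49 genes of the pathway in 5 lists were examined, 47 of which passed the filter; Ihh and Nkx6-1 did not. Among 6 tested genes of ligands and ligand release, YAP-M over SVZ had 4 higher and 1 lower (median log2 fold change 1.48), in a comparison where 25.8% of all genes were called higher and 28.9% lower. Disp1, whose product releases lipid-bearing ligand from cells, rose by 2.80 ± 0.17, at 36.2 to 50.1 CPM in YAP-M and 5.97 to 6.89 CPM in SVZ. Scube3, a secreted protein gene of the Scube family, rose by 1.54 ± 0.31, and Hhat, the gene of the enzyme that palmitoylates ligand, by 1.41 ± 0.32. Scube1 was lower, by -2.83 ± 0.39. Between YMdIDR and YAP-M the same list had 1 higher, the ligand gene Dhh, and 1 lower, Scube2, where 6.78% of all genes were called higher and 9.61% lower. Dhh had 1.93, 3.61 and 18.4 CPM in YMdIDR and 0.779 to 1.54 CPM in YAP-M (2.79 ± 0.63, adjusted p = 0.00478), so replicate 3 of YMdIDR carries most of its mean. Scube2 had 0.771, 0.135 and 0.177 CPM in YMdIDR and 0.855 to 1.62 CPM in YAP-M (-1.84 ± 0.50).

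Of 5 other receptor and co-receptor genes, YAP-M over SVZ had 2 higher and 1 lower (median 0.11), against 25.8% and 28.9% of all genes. Lrp2, the gene of the endocytic receptor megalin, had 240 to 420 CPM in YAP-M and 1.38 to 1.67 CPM in SVZ (7.68 ± 0.32, adjusted p = 1.05e-08). Gpc3, the gene of a glypican that binds Hedgehog, had 109 to 147 CPM in YAP-M and 4.66 to 5.82 CPM in SVZ (4.58 ± 0.26). Between YMdIDR and YAP-M, where 16.4% of all genes were called, only the co-receptor gene Cdon was called among the 5. Cdon was lower at -1.17 ± 0.41 (adjusted p = 0.0374), with overlapping groups of 4.56 to 12.9 CPM in YMdIDR and 8.76 to 28.5 CPM in YAP-M.

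The cytoplasmic regulators, 11 genes, had none higher and 2 lower in YAP-M over SVZ (median -0.69), against 25.8% and 28.9% of all genes. Those lower were Spop, the gene of a ubiquitin ligase adaptor that acts on Gli proteins, by -1.59 ± 0.11, and Prkaca, a protein kinase A subunit gene, by -1.45 ± 0.10. None of the 11 was called between YMdIDR and YAP-M, against 16.4% of all genes. Of 11 primary cilium and transport genes, YAP-M over SVZ had 2 higher and 4 lower (median -0.20), against 25.8% and 28.9% of all genes. Tulp3, the gene of a ciliary trafficking adaptor, rose by 1.70 ± 0.13 and Evc2, whose product binds Smoothened at the cilium, by 1.81 ± 0.16. The ciliary transport gene Ift172 was lower, at a mean of 8.57 CPM in YAP-M and 34.3 CPM in SVZ, and so was the kinesin gene Kif3a, by -1.54 ± 0.12 on the log2 scale. Multiciliated ependymal genes, which share axonemes with this list's organelle, summed to 9.73 to 29.0 CPM in YMdIDR, 15.3 to 31.9 CPM in YAP-M and 61.9 to 86.1 CPM in SVZ, with 4, 5 and 6 of 6 genes at a mean of 1 CPM or more. Their part was not tested. Between YMdIDR and YAP-M, where 16.4% of all genes were called, Ift88 was the 1 cilium gene called. Its levels were 8.48, 7.80 and 6.81 CPM in YMdIDR and 12.04 to 19.9 CPM in YAP-M (-1.09 ± 0.18, adjusted p = 0.000781).

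Reported Hedgehog targets other than the members, 15 tested, split into 6 higher and 4 lower in YAP-M over SVZ. Of all genes 25.8% were called higher there and 28.9% lower. The median of the list was 0.44, against -0.04 over all tested genes. The forkhead gene Foxm1, a cell cycle regulator, rose by 4.24 ± 0.31 and the mesenchymal forkhead gene Foxf1 by 4.97 ± 0.46, while the cyclin gene Ccnd1 rose by 1.35 ± 0.17. Nkx2-2, a ventral neural tube homeobox gene, was lower by -2.72 ± 0.30, at 1.62 to 3.03 CPM in YAP-M and 15.5 to 19.8 CPM in SVZ. Between YMdIDR and YAP-M, 2 were higher and none lower (median -0.10), against 6.78% and 9.61% of all genes. The cyclin gene Ccnd2 had 276, 324 and 300.3 CPM in YMdIDR and 87.7 to 150.3 CPM in YAP-M (1.27 ± 0.18, adjusted p = 0.000308). Foxf1 had 26.4, 88.3 and 87.6 CPM in YMdIDR and 20.4 to 27.1 CPM in YAP-M (1.51 ± 0.33), groups that overlapped through replicate 1. Over all 5 lists 6 genes were called between YMdIDR and YAP-M, where 16.4% of all genes were. Without YMdIDR replicate 1 the lists had 10, while the count over all genes also rose, from 3003 to 3793.

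**Figure D5:**
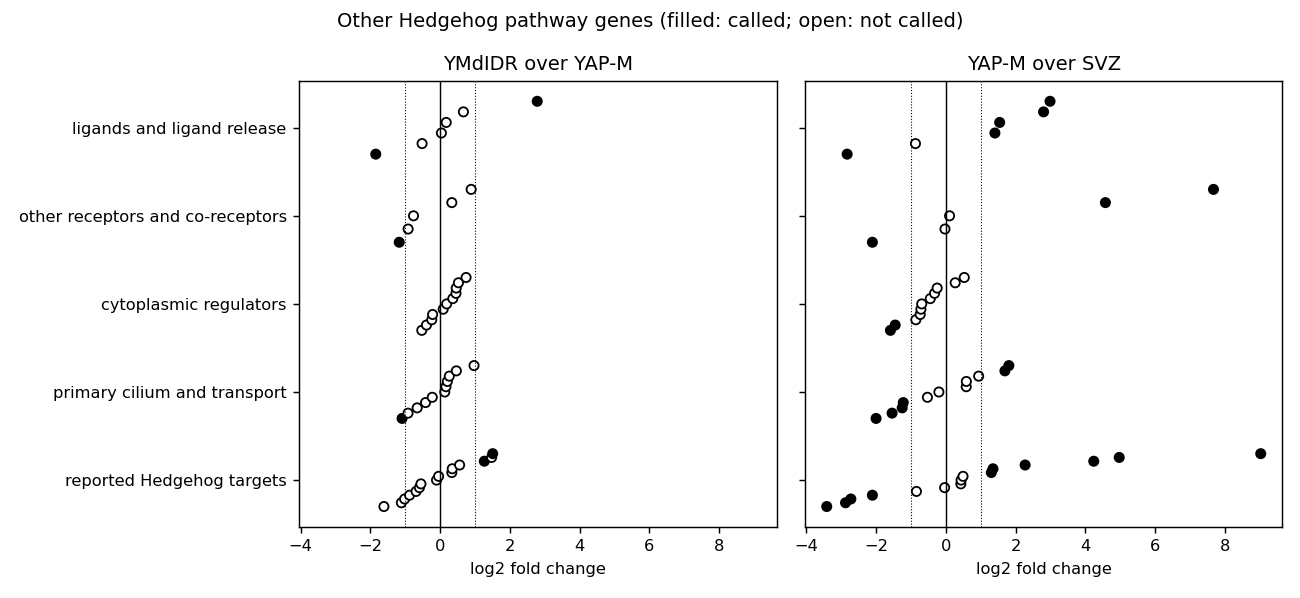
Log2 fold change (horizontal axes) of the tested genes of 5 further Hedgehog pathway lists in YMdIDR over YAP-M and YAP-M over SVZ; each point is 1 gene, filled where called and open where not, and dotted lines mark a log2 fold change of 1 in size. Ligand release and receptor genes hold most of their filled points at the right in YAP-M over SVZ, led by Lrp2 at 7.68 and Gpc3 at 4.58. In that comparison 25.8% of all genes were called higher and 28.9% lower. YMdIDR over YAP-M has 6 filled points in all, where 16.4% of all genes were called.

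Genes whose levels ran most like a member were ranked by Pearson's r of log2(CPM + 1) over the 12 libraries, as a description, since these libraries form 4 groups. Among 13266 genes, Nsmf (r = 0.995), Mgst3 (0.994) and Agap3 (0.993) were nearest to Gli1, and 1185 genes reached 0.9. For Ptch1 they were Evi5 (0.991), Stard7 (0.983) and Nhsl1 (0.982), with 441 genes at 0.9 or more. Hhip had 4 such genes, the nearest being Mcam (0.948), Adamts2 (0.945) and Col8a2 (0.916). Among the members themselves, Gli3 and Sufu ran most oppositely (r = -0.928), and Smo and Sufu (0.901) and Ptch1 and Gli2 (0.891) most alike.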

How the data were processed

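The authors deposited 1 table of raw, whole-number counts per library. The submitters' processing notes name TopHat2 and mm10. Their versions, the annotation, the program that counted reads and how it treated strand and shared reads are not stated in the sources used, so overlapping genes and paralogs may share or split reads. The 5 ChIP-seq and CUT&RUN samples were not analysed here.

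Entries with the same symbol were summed, giving 52850 symbols. The edgeR 4.0.16 quasi-likelihood test in R 4.3.3 was fitted to 18329 genes that reached 1 CPM in 2 or more libraries, with TMM scaling (factors 0.826 to 1.129), 1 coefficient per group, all 12 libraries together and Benjamini-Hochberg adjustment. CPM used scaled totals of tested genes. A value after ± is the SE of a log2 fold change. Counting intervals are exact and, like floors of 3 counts, cover counting error only. Replicates differed by more than sampling noise (chi-square per gene 4.18 to 84.9). The fit was tested on simulated data. Groups came from titles, and sequences from RefSeq.

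The members and lists were chosen with earlier results of these data known. Named were the members, up to 4 called genes per list with the smallest adjusted p in YMdIDR over YAP-M and in YAP-M over SVZ, and the 3 genes most like Gli1, Ptch1 and Hhip. Overlapping genes were named for their position, and single marker genes and pairs of members after their values were seen. The values of 1 list gene are not reported here. Other settings tried were a filter of 5 CPM or none, median-ratio or no scaling, DESeq2 1.42.0, a replicate block, fits of only the compared groups, calls by adjusted p, the highest entry per symbol, and leaving out each library.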

Additional observations from a re-analysis of the deposited data

Results flagged for a closer look

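Ptch1 in YAP-M replicate 4 stood at 38.6 CPM, apart from the 51.6 to 52.8 CPM of the other 3 YAP-M libraries. The gap took a share of 0.92 of the group's range. Of the 9 members tested in this way in the YAP-M group, Ptch1 was the 1 that stood out, and chance marks about 1 in 20 groups. Without this library the log2 fold change of Ptch1 was -1.68 for YMdIDR over YAP-M, -2.38 for YAP-M over NSC-YAP and -0.58 for YAP-M over SVZ, against -1.56, -2.52 and -0.79 with it, and the first 2 stayed called.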

How the results depend on the processing

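Of 792 recomputed log2 fold changes of members, 732 kept their direction and their side of the threshold, 22 became called, 17 lost a call and 21 turned sign, all of them of values that were not called. With calls by adjusted p alone, 5 members were called in YMdIDR over YAP-M and 6 in YAP-M over SVZ, against 3 in each with the fold change required. The 6 include Shh and Gli1, whose difference from SVZ the filter fixed. In YMdIDR over YAP-M 21 pathway genes were called in this way against 6, and 7967 of all genes against 3003. In YAP-M over SVZ 14463 of all genes were, against 10018. In YAP-M over SVZ, 1 member was called with a minimum of 5 CPM, where fewer members were tested and 7588 of all genes were called. With total counts and no scaling factor 5 members and 10340 of all genes were called, and the median of all genes moved from -0.04 to 0.30. Leaving out 1 library at a time gave 7 to 10 pathway genes in YMdIDR over YAP-M, against 6 with all libraries. The count over all genes there ran from 2475 to 3793, against 3003. In YMdIDR over NSC-YAP and NSC-YAP over SVZ, some of these fits called fewer members. Those that left a lone NSC-YAP library also called fewer of all genes. A lone NSC-YAP library was assumed to vary like the other groups. Sufu in YAP-M over SVZ was 0.07 with no filter, 0.01 with median-ratio scaling, 0.28 with total counts, 0.03 with DESeq2, 0.03 with the compared groups alone, and ranged from -0.04 to 0.07 without 1 library. Without 1 library, Hhip ranged from -0.81 to 0.23 in YMdIDR over YAP-M, from -0.69 to 0.36 in YMdIDR over SVZ and from -0.05 to 0.52 in YAP-M over SVZ, and Boc from -0.01 to 0.33 in YAP-M over SVZ. Of 15 same-numbered pairs of libraries, 4 correlated above 0.1 (-0.0968 to 0.386), and 7 of 12 libraries were closest to their own number, so the numbers were not taken as pairing. With the replicate number as a block, 4 members and 2925 of all genes were called in YMdIDR over YAP-M. The counts were 7 and 8652 in YMdIDR over NSC-YAP, and 6 and 10351 in YMdIDR over SVZ. They were 9 and 9207 in YAP-M over NSC-YAP, 3 and 10117 in YAP-M over SVZ, and 8 and 8248 in NSC-YAP over SVZ. The members compared with SVZ include Shh and Gli1, whose difference from it the filter fixed. Under the block Hhip was 0.01 in YMdIDR over YAP-M, -0.23 in YMdIDR over SVZ and -0.24 in YAP-M over SVZ, and Boc was -0.16 in YAP-M over SVZ. The cause of these changes was not tested. Depth limits Shh and Gli1 outside SVZ.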
